A study of Mus musculus with 8 samples.

Results

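The genes described here encode AP-1 and related leucine zipper transcription factors: the 3 JUN genes Jun, Junb and Jund, the 4 FOS genes Fos, Fosb, Fosl1 and Fosl2, and Atf3, Maff and Creb1. They were picked by name, as the rows of the deposited count table that carry these symbols, and all 10 were found among 48709 genes. Their levels were compared between 4 WT and 4 Batf2-/- libraries of mouse alveolar macrophages, the macrophages that live in the air spaces of the lung. WT mice were C57BL/6J, and the labels name no other allele in the Batf2-/- mice and no age. All cells, WT and Batf2-/- alike, were primary cells treated outside the body first with interferon gamma (10 ng/mL, 4 h) and afterwards with 20% Klebsiella pneumoniae culture supernatant (6 h). Cells of 4 mice were pooled for each library, so its values are those of a pool, and no unstimulated cells were compared. Batf2, the deleted gene, was counted 4459 to 7361 times in the WT libraries and 0 times in every Batf2-/- library.

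Proteins of this class bind DNA as dimers held together by a leucine zipper. JUN proteins form homodimers or pair with FOS proteins, which do not form stable homodimers, and the resulting AP-1 dimers bind the sequence TGAGTCA, called the TPA response element or TRE. CREB and ATF proteins bind a related sequence, TGACGTCA, called the cAMP response element or CRE. BATF2 lacks the activation domain of FOS proteins and pairs with JUN proteins at AP-1 sites, so its loss removes a partner from this pool. In macrophages, JUN and FOS genes are switched on within minutes of contact with bacterial products, and many inflammatory genes carry sites for them.

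The promoters of Creb1, Fos, Fosl2 and Atf3 are shown because Creb1 was the member that passed the test, Fos and Fosl2 form a pair whose ratio kept the genotypes apart, and Atf3 stood at the highest level. Each is 250 bases before and 50 bases after the RefSeq start site on GRCm38.p6, written 5′ to 3′ on the strand of the gene. Capitals mark the first 5 letters of the CRE, TGACG, on either strand. The windows are chr1:64532554-64532853 on the plus strand for Creb1, chr12:85473640-85473939 on the plus strand for Fos, chr5:32136222-32136521 on the plus strand for Fosl2, and chr1:191183284-191183583 on the minus strand for Atf3.
Creb1: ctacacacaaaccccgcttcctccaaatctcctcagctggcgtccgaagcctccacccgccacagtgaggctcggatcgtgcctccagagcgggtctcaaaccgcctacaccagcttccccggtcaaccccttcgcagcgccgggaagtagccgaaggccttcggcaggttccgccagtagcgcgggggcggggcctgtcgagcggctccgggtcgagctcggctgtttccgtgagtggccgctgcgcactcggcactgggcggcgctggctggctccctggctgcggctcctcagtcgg
Fos: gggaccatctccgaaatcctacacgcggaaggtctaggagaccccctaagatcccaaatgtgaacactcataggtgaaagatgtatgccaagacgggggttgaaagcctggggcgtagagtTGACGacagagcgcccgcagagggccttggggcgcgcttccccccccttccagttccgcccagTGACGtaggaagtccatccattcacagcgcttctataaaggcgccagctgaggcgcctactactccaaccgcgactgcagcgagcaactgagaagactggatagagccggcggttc
Fosl2: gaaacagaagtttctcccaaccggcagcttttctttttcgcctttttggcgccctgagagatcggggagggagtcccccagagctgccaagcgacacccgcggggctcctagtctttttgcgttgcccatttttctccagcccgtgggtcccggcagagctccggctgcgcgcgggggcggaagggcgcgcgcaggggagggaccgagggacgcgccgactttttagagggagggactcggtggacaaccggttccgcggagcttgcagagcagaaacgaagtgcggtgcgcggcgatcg
Atf3: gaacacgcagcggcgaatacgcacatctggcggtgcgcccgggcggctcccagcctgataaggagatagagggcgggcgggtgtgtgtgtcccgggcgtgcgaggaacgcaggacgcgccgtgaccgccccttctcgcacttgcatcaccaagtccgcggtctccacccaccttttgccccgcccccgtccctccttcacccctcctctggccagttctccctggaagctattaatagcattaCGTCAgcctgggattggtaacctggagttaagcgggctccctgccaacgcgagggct

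Fos held TGACG at 2 places, starting at -129 and -66 from the start site, and Atf3 held it once, on the opposite strand at -7. Creb1 and Fosl2 held none in these windows. Of the 10 members, 9 had a RefSeq window, Maff 3 of them, and 5 members held TGACG in at least 1 window, the others being Junb, Fosb and Maff. Counted by window, TGACG was present in 6 of the 11 member windows. The share was 20.8% of 32851 promoter windows of the same length, a set that leaves out chromosome 18. The full CRE, TGACGTCA, was found in 1.79% of all windows and, among the members, in Maff at -29. The TRE, TGAGTCA, occurred in 5.20% of all windows and in none of the members'. A related sequence, TGACATCA, was in 3.62% of all windows and stood at -45 in Jun and, in another of its windows, at -45 in Maff. The full CRE includes the TGACG letters, and both strands were searched. The window of Jund ends at chr8:70697788, before the annotated Jund gene, which starts at 70698949. The sequence at that annotated start was not searched. These matches describe letters only and no binding was measured.

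The numbers given to libraries are table columns, with WT in 1 to 4 and Batf2-/- in 5 to 8. Total counts ranged from 31730041 to 39888022 per library. The leading axis of variation over all genes held 42.5% of the variance and ran across both genotypes, with scores, by column, of -16.7, -7.73, 4.72 and 43.9 for WT and -34.95, -16.2, -1.85 and 28.9 for Batf2-/-. Library 4 of WT and library 8 of Batf2-/- stood at its high end, and the order of the scores was the same as that of the columns in each genotype. Several members followed that axis, so values with and without these 2 libraries are given where they matter. The share of counts from ribosomal protein genes was 4.48% and 4.56% in libraries 4 and 8 and 2.62% to 3.41% in the other 6. The summed level of 14 heat shock genes was likewise highest in these libraries, at 5562 and 5603 CPM (counts brought to 1 library size by TMM factors, which correct for composition) against 3514 to 4658 CPM. Their part in the results was not tested. Markers of alveolar macrophages were present, with 0 of 16 at 0 counts, and their summed level was 7671 to 9273 CPM in WT and 9674 to 14231 CPM in Batf2-/-. Chil3 weighed most in these sums, with means of 3316 CPM in WT and 6291 CPM in Batf2-/-. The means of Lpl (2237 and 1695 CPM), Atp6v0d2, Siglecf, Fabp4 and Pparg were lower in Batf2-/-, and those of the remaining markers higher. Of the 16, 1 had an edgeR adjusted p under 0.05, higher in Batf2-/-. The 10 neutrophil markers summed to 20.4 to 33.2 CPM in WT and 32.7 to 54.1 CPM in Batf2-/-, with Ly6g and Retnlg at 0. In B cell, NK cell and erythroid markers no library exceeded a sum of 0.620 CPM. The B cell sums did not overlap between genotypes, at 0 to 0.205 CPM in WT and 0.228 to 0.400 CPM in Batf2-/-. The lists for T cells, dendritic cells, interstitial macrophages, epithelium, and endothelium and stroma each overlapped between genotypes in their sums, none of which exceeded 45.8 CPM in a library, and Cd209a, Siglech, Lyve1 and Ncr1 were at 0. Lck weighed most in the T cell sums, with means of 6.65 CPM in WT and 8.14 CPM in Batf2-/-. Each of the 8 T cell markers had a higher mean in Batf2-/-, such as Cd4 at 0.153 and 0.692 CPM, and 1 passed the filter on low counts. At an edgeR adjusted p under 0.05, 1 dendritic cell marker was lower and 1 endothelial and stromal marker higher in Batf2-/-. The part of other cells in the results was not tested. In pooled cells, fewer cells of a type and less RNA per cell cannot be told apart.

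Creb1 was lower without Batf2, and no other member passed the test. Of the 9 members that passed the filter on low counts, 1 fell and none rose by edgeR's quasi-likelihood test with an adjusted p under 0.05. Over the 11083 genes tested, 1.11% passed, 0.559% lower and 0.55% higher in Batf2-/-. At an unadjusted p under 0.05 the count was 3 of 9, Creb1, Fos and Fosl2, where 8.5% of all tested genes had such a p. A fit with table position as a block, which pairs library 1 with 5, 2 with 6 and so on, called Creb1, Fos, Fosl2 and Atf3 (edgeR adjusted p = 6.74e-05, 0.00353, 1.17e-04 and 0.0208). The labels give no such pairing, and that fit called 1390 genes of the whole table in place of 123. The CPM of Creb1 did not overlap between genotypes, that of the other 9 members did, and 6.33% of all tested genes had groups that did not overlap. Fosb did not pass the filter.

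**Figure D1:**
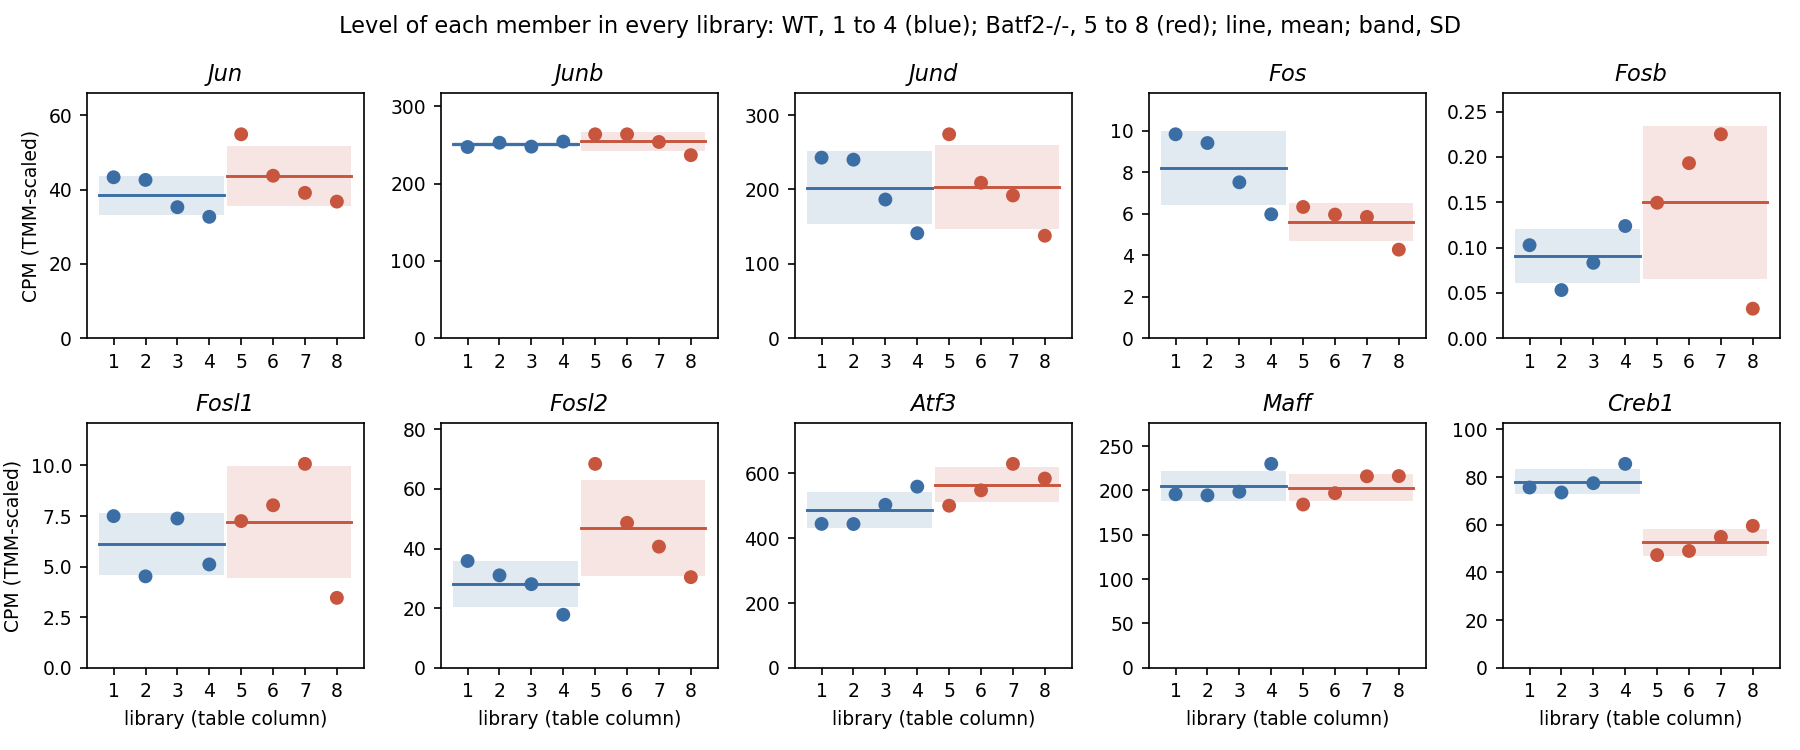
Level of each of the 10 members in every library, in CPM on a linear axis from 0, with WT libraries 1 to 4 in blue and Batf2-/- libraries 5 to 8 in red; lines are means and bands are SD over 4 libraries. Creb1 lies between 73.5 and 85.5 CPM in WT and between 47.3 and 59.6 CPM in Batf2-/-, while the groups overlap for the other members.

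Creb1 (ENSMUSG00000025958; GRCm38 chromosome 1, 64532645 to 64604548, plus strand) encodes CREB1, the factor that switches genes on after phosphorylation by cAMP-dependent and mitogen-activated kinases. Its CPM was 75.6, 73.5, 77.4 and 85.5 in WT libraries 1 to 4 and 47.3, 49.0, 54.9 and 59.6 in Batf2-/- libraries 5 to 8. All 4 Batf2-/- libraries lay below all 4 WT libraries, and the highest value of each genotype was that of library 4 and library 8. The fall of Creb1 was 1.48-fold, with a mean of 78.0 ± 5.25 CPM in WT and of 52.7 ± 5.62 CPM without Batf2 (SD, 4 libraries each), a log2 fold change of -0.57 with a standard error of 0.11 (edgeR adjusted p = 0.0498). This p lies just under the threshold, and the call was lost without any one of libraries 1 to 7 (adjusted p = 0.107 to 0.236), with other normalizations (0.0508 and 0.0531) and with other filters (0.0558 and 0.0670). The log2 fold change itself stayed between -0.63 and -0.50 over 17 alternatives, and the call was kept without library 8 (0.0343), without libraries 4 and 8 (0.0214), with limma-voom (0.0457), with library quality weights (0.00442), with DESeq2 (1.66e-04) and with the block on table position.

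Atf3 was the most abundant member. Atf3 (chromosome 1, 191170296 to 191218039, minus strand) encodes a stress-induced factor known in macrophages as a feedback repressor of cytokine genes turned on by toll-like receptors. Its CPM was 444, 444, 503 and 559 in WT libraries 1 to 4 and 500.3, 548, 629 and 584 in Batf2-/- libraries 5 to 8. The ranges overlapped, since libraries 3 and 4 of WT exceeded library 5 of Batf2-/-, and Atf3 was higher in Batf2-/- at each of the 4 table positions. The labels give no pairing by position, and the share of all genes with such an order was not counted. Atf3 did not pass the test, with means of 487 ± 55.3 and 565 ± 54.8 CPM (log2 fold change 0.21, standard error 0.12, edgeR adjusted p = 0.824).

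Maff encodes a small MAF protein that has a zipper but no activation domain. Its CPM was 196, 194, 199 and 229.9 in WT libraries 1 to 4 and 184, 197, 216 and 216 in Batf2-/- libraries 5 to 8. The means were nearly the same, 205 ± 17.0 and 203 ± 15.7 CPM (log2 fold change -0.01, standard error 0.11, edgeR adjusted p = 1.00). The highest value, that of WT library 4, stood apart from the other 3 WT libraries.

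The JUN genes were led by Junb and Jund. JUNB and JUND are weaker activators than JUN in many settings and can restrain it. Junb varied least, with CPM of 247, 253, 248 and 254 in WT libraries 1 to 4 and 264, 264, 254 and 237 in Batf2-/- libraries 5 to 8 (log2 fold change 0.02, standard error 0.09, edgeR adjusted p = 1.00). Jund varied widely within each genotype, at 243, 240.1, 187 and 141 CPM in WT libraries and 274, 209, 192 and 138 CPM in those without Batf2. Its lowest values were those of libraries 4 and 8, and the group means did not differ beyond this spread, at 203 ± 48.5 and 203 ± 56.2 CPM (log2 fold change 0.00428, standard error 0.23, adjusted p = 1.00). Jun, which encodes the AP-1 subunit activated by JUN N-terminal kinases, stood at 43.3, 42.6, 35.3 and 32.7 CPM in WT libraries 1 to 4. In Batf2-/- libraries 5 to 8 Jun stood at 54.9, 43.7, 39.1 and 36.8 CPM, and the ranges overlapped (log2 fold change 0.18, standard error 0.15, adjusted p = 1.00). Like Atf3, Jun was higher in Batf2-/- at each of the 4 table positions. Part of Jund and of Junb lies over genes on the opposite strand (877 exonic bases shared with Gm11175 and 173 with Prdx2), and the strand setting of the count is not given in the sources used here. Prdx2 stood at 106 ± 35.8 and 113 ± 40.0 CPM and Gm11175 at 0.226 ± 0.0835 and 0.349 ± 0.182 CPM in WT and Batf2-/-.

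The FOS genes stood below Atf3, Maff, Junb and Jund 6 h after the bacterial supernatant was added, and no other time was compared. Their values leaned in different directions between genotypes without passing the test. Fos (ENSMUSG00000021250; chromosome 12, 85473890 to 85477273, plus strand), the prototype immediate early gene, had CPM of 9.83, 9.41, 7.52 and 5.98 in WT libraries 1 to 4. In Batf2-/- libraries 5 to 8 Fos had CPM of 6.33, 5.96, 5.85 and 4.27. Only library 4 of WT lay within the Batf2-/- range, Fos was lower in Batf2-/- at each of the 4 table positions, and it did not pass, at 8.18 ± 1.78 and 5.60 ± 0.911 CPM (log2 fold change -0.55, standard error 0.19, edgeR adjusted p = 0.347, unadjusted p = 0.0162).

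Fosl2 (ENSMUSG00000029135; chromosome 5, 32135801 to 32157842, plus strand) encodes a FOS-related factor without the strong activation domain of FOS. Its CPM was 35.8, 31.0, 28.0 and 17.8 in WT libraries 1 to 4 and 68.4, 48.6, 40.6 and 30.4 in Batf2-/- libraries 5 to 8. Library 8 of Batf2-/- lay among the WT values, and the other 3 lay above all of WT. At each of the 4 table positions Fosl2 was higher in Batf2-/-, as were Jun and Atf3, though the labels give no pairing by position. Fosl2 did not pass, at 28.2 ± 7.61 and 47.0 ± 16.1 CPM (log2 fold change 0.74, standard error 0.27, edgeR adjusted p = 0.407, unadjusted p = 0.0223). Without libraries 4 and 8 the log2 fold changes were -0.55 for Fos and 0.74 for Fosl2, with edgeR adjusted p of 0.0905 and 0.0938.

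Fosl1 (ENSMUSG00000024912; chromosome 19, 5447547 to 5455946, plus strand), whose product also lacks the strong activation domain, lies 0.685 Mb from Batf2, the nearest of the members to the deleted gene and the one on its chromosome. Its CPM was 7.50, 4.52, 7.38 and 5.11 in WT libraries 1 to 4 and 7.25, 8.03, 10.1 and 3.46 in Batf2-/- libraries 5 to 8. The WT values fell entirely inside the range of Batf2-/- (log2 fold change 0.24, standard error 0.30, edgeR adjusted p = 1.00). Fosl1 shares 1163 exonic bases with Ccdc85b on the opposite strand, which stood at 2.47 ± 0.0815 and 2.31 ± 0.338 CPM. Fosb, a further FOS gene induced early, had 4, 2, 3 and 4 counts in WT and 6, 7, 9 and 1 in Batf2-/-, numbers at which a difference was not detectable.

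**Figure D2:**
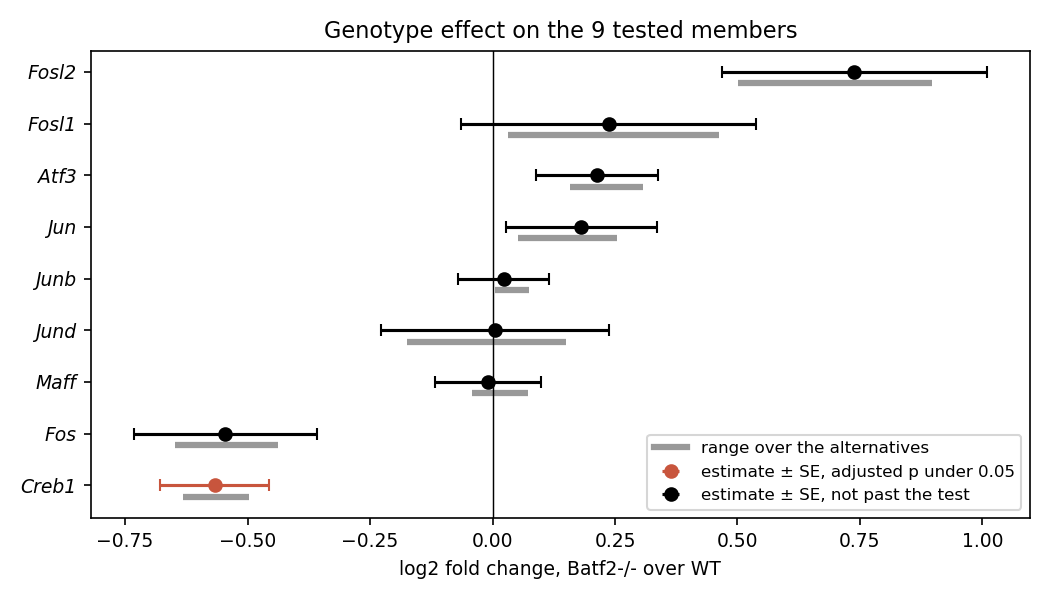
Log2 fold change of the 9 tested members, Batf2-/- over WT, with bars for the standard error; gray bars give the range over 17 alternative ways to process the counts. Creb1, in red, had an adjusted p under 0.05, and the ranges of Jund and Maff extend to both sides of 0.

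Levels of different genes were compared per length, as CPM per kb of exon in the GRCm38 annotation. In WT, Atf3 led at 226 ± 25.7 CPM per kb (SD, n = 4), followed by Jund at 121 ± 29.1, Junb at 109 ± 1.53 and Maff at 78.9 ± 6.54. Jun stood at 12.1 ± 1.66 CPM per kb, Creb1 at 5.68 ± 0.382, Fos at 3.48 ± 0.758, Fosl1 at 3.01 ± 0.755, Fosl2 at 2.91 ± 0.787 and Fosb at 0.0145 ± 0.00481. Over the 4 WT libraries the ranges of Jund and Junb overlapped, as did those of Fos and Fosl1 and of Fosl1 and Fosl2, so their order was not resolved. All other neighbours in this order had ranges that did not overlap. Batf2 itself stood at 66.7 ± 8.67 CPM per kb in WT, below Maff and above Jun. This place rests on its 2.522 kb of exon. Its longest transcript has 1.584 kb, for a WT mean of 168 CPM. By that length the place below Maff does not hold, Maff standing at 105 CPM per kb by its own longest transcript.

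In Batf2-/- the first 5 places were the same, and below Jun the order was Fosl2 at 4.86 ± 1.66 CPM per kb, Creb1 at 3.83 ± 0.409, Fosl1 at 3.54 ± 1.36 and Fos at 2.38 ± 0.387. The ranges of each pair of neighbours among these 4 overlapped. The summed level of the 3 JUN genes was 242 ± 30.0 CPM per kb in WT and 246 ± 41.0 in Batf2-/-, and that of the 4 FOS genes 9.42 ± 1.92 and 10.8 ± 2.88. Both sums overlapped between genotypes. Of the summed FOS level per kb, Fos made up 32.8% to 42.4% in WT and 20.2% to 27.3% in Batf2-/-. Fosl2 made up 26.6% to 33.9% in WT and 35.9% to 52.9% in Batf2-/-.

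**Figure D3:**
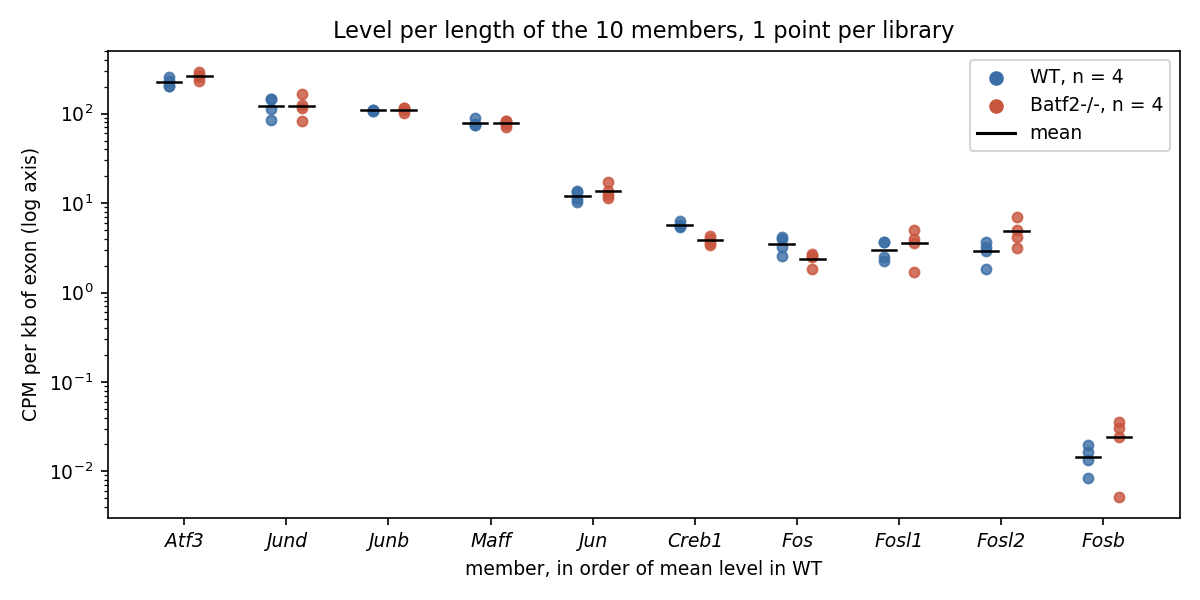
Level per length of the 10 members on a log axis, in CPM per kb of exon, with 1 point per library (WT blue, Batf2-/- red) and black bars for the means. Atf3, Jund, Junb and Maff stand between 71.0 and 292 CPM per kb, the FOS genes other than Fosb at up to 7.06, and Fosb between 0.00522 and 0.0360.

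Several members varied in a shared way among libraries of 1 genotype. The correlations that follow are over deviations of log2 CPM from the genotype mean in 8 libraries, which share depth and preparation with every other gene of the library, and are descriptions. Jund followed Fosl2 (Pearson r = 0.977), Fos (0.951) and Jun (0.948), and all 4 were lowest within each genotype in library 4 or 8. Atf3 followed Maff (0.920) and Creb1 (0.809), and Jun ran against these 3 (-0.916, -0.891 and -0.890). Without libraries 4 and 8, the values over the remaining 6 were 0.922, 0.811 and 0.993 for Jund with Fosl2, Fos and Jun, and 0.908 and 0.935 for Atf3 with Maff and Creb1. Fos with Fosl2 went from 0.906 to 0.606. Fosl1 belonged to neither set, and its correlation with Jund went from 0.486 to -0.584. Junb was tied more loosely over the 8 libraries, at 0.527 with Jun, 0.570 with Jund, 0.459 with Fos and -0.260 with Atf3.

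The genes most like 4 of the members by this measure, among 8516 genes whose mean log2 CPM was 2 or more, were Rnf217, Bscl2 and Vcl for Jun (r = 0.995, 0.994 and 0.994), Zfr, Gxylt1 and Tpcn2 for Fos (0.989, 0.988 and 0.986), Stip1, Agpat4 and Gadd45b for Atf3 (0.993, 0.990 and 0.986) and Uhrf2, Ppp1r8 and Bpgm for Creb1 (0.999, 0.997 and 0.996). Such likeness was common: 898, 1410, 378 and 1900 of these genes had r over 0.9 with Jun, Fos, Atf3 and Creb1.

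Ratios of counts inside 1 library do not depend on its scaling, and a deviation that members share partly cancels in them. They were examined after the values above were seen and are given without a test. Of the 36 pairs of tested members, 11 (30.6%) had ratios that did not overlap between genotypes, and 6 of 28 (21.4%) when Creb1 was left out. Over all 61410903 pairs of tested genes the figure was 7.86%. Pairs that share a member are not independent.

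Fosl2 to Fos was one of the 6. There were 3.64, 3.29, 3.73 and 2.98 Fosl2 counts for each Fos count in WT libraries 1 to 4, and 10.8, 8.15, 6.94 and 7.11 in Batf2-/- libraries 5 to 8. The lowest Batf2-/- ratio was above the highest WT ratio, also in library 8, with means of 3.41 ± 0.344 and 8.25 ± 1.78 (SD, n = 4). Jund to Fos was nearly constant in WT, at 24.7, 25.5, 24.8 and 23.6, although Jund and Fos each varied, and stood at 43.3, 35.1, 32.8 and 32.3 in Batf2-/-. Jund to Fosl2 went the other way, at 6.78, 7.74, 6.65 and 7.93 in WT and 4.01, 4.30, 4.72 and 4.53 in Batf2-/-. Relative to Jund, then, Fos was lower and Fosl2 higher in every Batf2-/- library than in any WT library. Relative to Junb, which varied least, both overlapped between genotypes. Junb to Fos was 25.2 to 42.6 in WT and 41.7 to 55.4 in Batf2-/-. Junb to Fosl2 was 6.91 to 14.3 in WT and 3.86 to 7.79 in Batf2-/-. The ratios of Fos and of Fosl2 with Atf3, Maff and Fosl1 overlapped as well.

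Jun showed the same 2 contrasts as Jund. There were 4.40 to 5.47 Jun counts per Fos count in WT against 6.68 to 8.67 in Batf2-/-. Per Fosl2 count there were 1.21 to 1.83 against 0.802 to 1.21, where the nearest libraries nearly touched (1.2093 and 1.2092). Atf3 to Maff was 2.27, 2.28, 2.53 and 2.43 in WT and 2.72, 2.78, 2.91 and 2.70 in Batf2-/-, a small difference between groups that did not overlap. Maff to Creb1 was 2.59, 2.64, 2.56 and 2.69 in WT and 3.89, 4.02, 3.93 and 3.63 in Batf2-/-. The SD of that ratio was 0.0563 in WT and 0.167 in Batf2-/-, where Creb1 itself was the member that fell. Atf3 to Creb1 was 5.87 to 6.54 in WT and 9.81 to 11.5 in Batf2-/-.

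**Figure D4:**
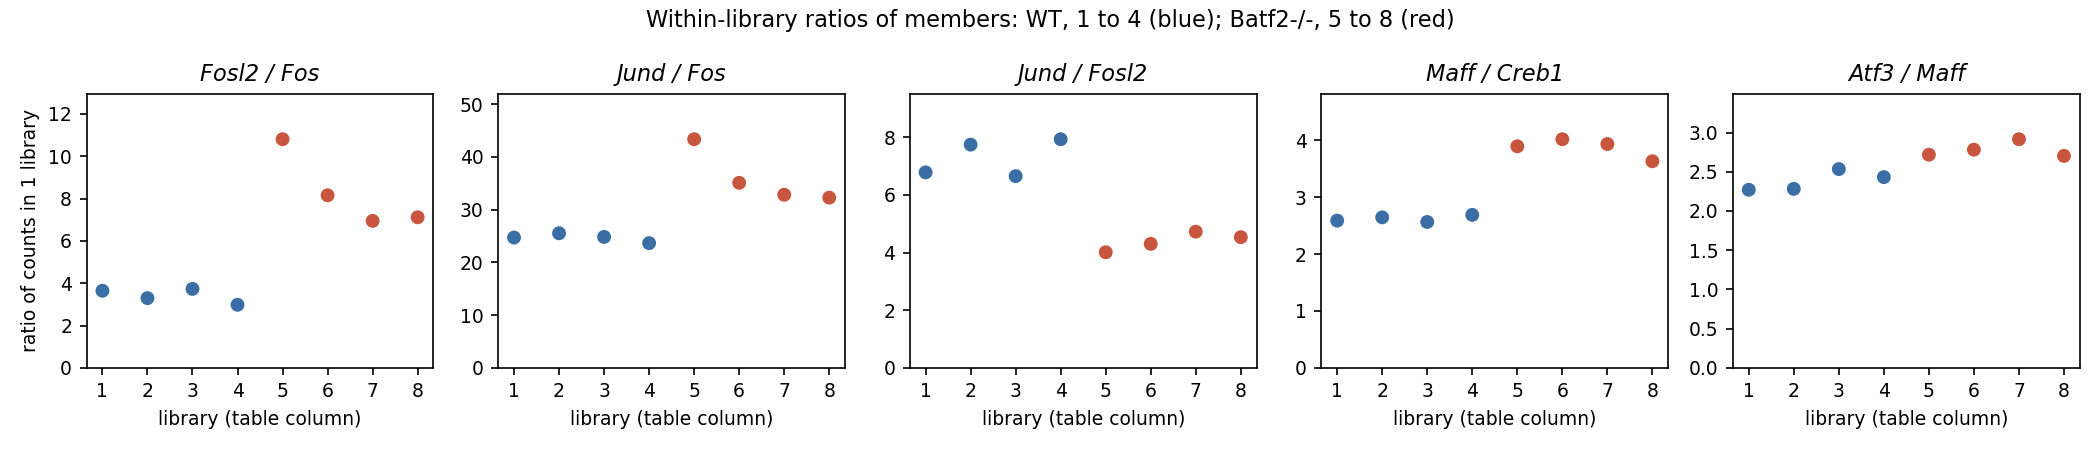
Ratio of the counts of 2 members within each library, on linear axes from 0, for WT libraries 1 to 4 (blue) and Batf2-/- libraries 5 to 8 (red). In each of the 5 panels all Batf2-/- libraries lie to 1 side of all WT libraries, as for Fosl2 to Fos at 2.98 to 3.73 and 6.94 to 10.8.

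Lists of related genes were counted in the same fit, beside the shares over all genes. Of 9 other tested AP-1, ATF and BATF genes, 1 fell and 8 did not pass, where 1.11% of all tested genes passed. Their median log2 fold change was -0.03 beside -0.01 over all genes tested. DESeq2 called 1 of the 9 and 2.68% of all genes it gave an adjusted p. An unadjusted edgeR p under 0.05 was found in 2 of the 9 and in 8.5% of all tested genes. The gene that fell was Jdp2, a zipper repressor that pairs with JUN, at 17.5 ± 1.51 CPM in WT and 7.39 ± 0.700 in Batf2-/- (edgeR adjusted p = 0.00115). Batf3, which like BATF2 pairs with JUN proteins, stood at 5.43 ± 1.51 and 8.59 ± 1.88 CPM (adjusted p = 0.317). Of 14 MAF, cap'n'collar and CEBP factors 0 passed by edgeR and 0 by DESeq2. An unadjusted edgeR p under 0.05 was found in 2 of the 14, beside 8.5% of all tested genes. These were Cebpd at 22.5 ± 1.39 and 16.8 ± 2.23 CPM and Nfil3 at 20.6 ± 1.83 and 25.1 ± 2.00 CPM.

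Of 19 tested CREB relatives, coactivators and cAMP-pathway kinases other than Creb1, 0 passed by edgeR or DESeq2 and 0 had an unadjusted p under 0.05. Crebbp, the coactivator that binds phosphorylated CREB1, had means of 13.9 ± 3.40 and 17.5 ± 1.92 CPM in WT and Batf2-/- (edgeR adjusted p = 0.771). Of 12 tested genes known to be controlled by CREB, 1 rose, 1 fell and 10 did not pass. Over all genes tested, 1.11% passed. The median log2 fold change of the 12 was 0.21 beside -0.01 over all genes tested. DESeq2 called 3 of the 12, where it called 2.68% of all genes it gave an adjusted p. An unadjusted edgeR p under 0.05 was found in 4 of the 12 and in 8.5% of all tested genes. This list too was chosen with earlier results of these data known. Nr4a3, an early-induced nuclear receptor, rose from 2.18 ± 0.870 to 8.57 ± 2.95 CPM (edgeR adjusted p = 0.0269). Pde4b, a phosphodiesterase that degrades cAMP, fell, with 120.4 ± 6.84 CPM in WT and 80.1 ± 6.18 CPM without Batf2 (adjusted p = 0.0277). Areg, which encodes a ligand of the EGF receptor, stood at 1.96 ± 0.328 and 3.30 ± 0.590 CPM (adjusted p = 0.121). Dusp1, the phosphatase of JNK and p38, stood at 23.9 ± 4.50 and 32.5 ± 5.06 CPM (adjusted p = 0.409).

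Upstream of JUN and FOS, 0 of 23 tested JNK, ERK and p38 pathway kinases passed by edgeR, where 1.11% of all tested genes passed. DESeq2 called 1 of them and 2.68% of all genes it gave an adjusted p. An unadjusted edgeR p under 0.05 was found in 2 of the kinases and in 8.5% of all tested genes. The smallest p was that of Rps6ka5, the kinase MSK1 that phosphorylates CREB1 and histone H3, with 3.18 ± 0.261 and 1.88 ± 0.333 CPM in WT and Batf2-/- (edgeR adjusted p = 0.0769). Among 23 serum response factors, ternary complex factors and other immediate early genes, 1 rose, Nr4a3, and 22 did not pass. Over all genes tested, 1.11% passed. The median log2 fold change of the 23 was 0.10 beside -0.01 over all genes tested. DESeq2 called 1 of the 23, beside its 2.68% of all genes with an adjusted p. An unadjusted edgeR p under 0.05 was found in 5 of the 23 and in 8.5% of all tested genes. Myc stood at 13.0 ± 2.53 and 8.17 ± 2.13 CPM (adjusted p = 0.259), Mkl2, which encodes a coactivator of serum response factor, at 25.1 ± 5.08 and 36.7 ± 5.94 CPM (adjusted p = 0.270) and Elk3 at 4.28 ± 0.441 and 5.87 ± 0.923 CPM (adjusted p = 0.298). Of 13 heat shock genes 0 passed by edgeR or DESeq2, and 1 had an unadjusted p under 0.05. Of 13 genes that act on JUN or FOS protein, such as ubiquitin ligases, 0 passed by edgeR or DESeq2, and 1 had an unadjusted p under 0.05. Such a p was found in 8.5% of all tested genes.

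Among 24 tested genes with known AP-1 control, 2 rose, none fell and 22 did not pass, where 1.11% of all tested genes passed. Their median log2 fold change was 0.13 beside -0.01 over all genes tested. DESeq2 called 4 of the 24, where it called 2.68% of all genes it gave an adjusted p, and 14 of the 24 had an unadjusted edgeR p under 0.05, where 8.5% of all tested genes did. The list was chosen with earlier results of these data known. Il1b, which encodes an inflammatory cytokine, had a 2.68-fold higher level without Batf2 (edgeR adjusted p = 0.00626). F3, the tissue factor gene, rose 1.98-fold, with 1.79 ± 0.370 CPM in WT and 3.54 ± 0.437 CPM without Batf2 (adjusted p = 0.0360). Timp1, a protease inhibitor, stood at 1.76 ± 0.290 and 2.86 ± 0.295 CPM (adjusted p = 0.104) and Cd44, the hyaluronan receptor, at 990 ± 123 and 693 ± 77.2 CPM (adjusted p = 0.149).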

How the data were processed

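A stranded mRNA kit was used, per the labels' protocols. The authors deposited total read counts for each gene, raw per the file headers. The build, per the submitters' processing notes, was GRCm38 (mm10). Aligner, counting tool, strand setting and annotation are not given in the sources used here. The 8 count columns stood under a genotype heading, 4 under each, and carried no replicate number. Pairs of libraries of 1 genotype differed by far more than sampling noise (chi-square of at least 24.8 per degree of freedom) and were kept as separate samples.

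Counts were fitted with edgeR 4.0.16 (R 4.3.3; default filter, TMM, robust quasi-likelihood, genotype as the only term), and p-values were adjusted by Benjamini-Hochberg over all 11083 genes kept. The standard error is the log2 fold change divided by the square root of F. CPM uses TMM-scaled library sizes. The fit was also run on simulated counts, drawn for each gene apart and without the axis that the libraries share. That run cannot show how the fit handles this axis. Alternatives were DESeq2 1.42.0, limma-voom (limma 3.58.1) with and without quality weights, other normalizations, filters and thresholds, left-out libraries and a block on table position. P-values set the difference between genotypes against the spread between pools, which includes the axis across columns. Exon lengths and coordinates came from GENCODE on GRCm38 (48349 of 48709 identifiers matched), promoters from RefSeq on GRCm38.p6. The text names all 10 members, Batf2, up to 4 genes of each list by smallest p, and the 3 genes most like each of 4 members. Members and lists were chosen with earlier results of these data known.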

Additional observations from a re-analysis of the deposited data

Results flagged for a closer look

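Of the 20 groups of 4 libraries examined, 10 members in each genotype, 1 had a value far from the other 3. Maff stood at 229.9 CPM in WT library 4, with a gap to the next library that was 0.885 of the range of the group, above the critical value of Dixon's test. Chance alone gives such a value in about 1 group in 20.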

How the results depend on the processing

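The 123 genes changed over the whole table became 343 with DESeq2, 382 with limma-voom and library quality weights, 47 at an adjusted p under 0.01, 206 without libraries 4 and 8, 1390 with table position as a block and 43 to 142 when single libraries were left out. The count of members changed, 1 (Creb1), was 0 with RLE or upper quartile normalization, with no filter, with the stricter filter and at an adjusted p under 0.01, and 0 to 1 when single libraries were left out. It was 4 with table position as a block: Creb1 (adjusted p = 6.74e-05) and Fos (0.00353) lower, Fosl2 (1.17e-04) and Atf3 (0.0208) higher in Batf2-/-. The labels do not give that block, and over the other 16 alternatives none of Fos, Fosl2 and Atf3 passed (lowest adjusted p of 0.0905, 0.0874 and 0.245). The cause of these shifts was not tested. By the replicate numbers of the labels, no paired analysis was possible because the count columns do not carry them. The block on table position pairs columns by place alone. Of 153 log2 fold changes of members under alternatives, 126 kept direction and side of the threshold. The sign turned only in members near 0. Jund was at -0.00236 with DESeq2, -0.00523 with limma-voom, -0.00414 with no filter, -0.00416 with the block, and -0.175 to 0.150 when single libraries were left out. Maff was at 0.0430 with library quality weights, 0.0316 without libraries 4 and 8, and -0.0412 to 0.0724 when single libraries were left out. With the longest transcript in place of all exons, WT levels per kb were 139 for Junb, 0.0240 for Fosb, 4.31 for Fosl2, 105 for Maff and 9.33 for Creb1, which puts Junb above Jund and Fosl2 above Fos. Depth limits Fosb, with 9 counts or fewer per library.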
